A study of Mus musculus with 8 samples.

Results

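The 10 genes considered here belong to the Hedgehog and bone morphogenetic protein (BMP) pathways of the intestinal crypt and villus. They were taken by name, but earlier results of these data were known when they were chosen. They are the Hedgehog genes Ihh, Ptch1 and Hhip, and the BMP genes Bmp2, Bmpr1a, Bmpr2, Id1, Id2, Id3 and Smad7. Of the 10, 9 had a row among the 23318 Ensembl genes of each library, and the expression of Hhip was not analysed here. The study sequenced RNA of mouse small intestinal epithelial cells separated by flow cytometry on the surface glycoprotein CD24. CD24Neg cells gave 4 libraries, numbered 2, 4, 6 and 8, and CD24Mid cells (also written CD24low by the submitters) gave 4 libraries, numbered 1, 3, 5 and 7, all described as biological replicates. Cells of both fractions had been depleted of those carrying CD45, the pan-leukocyte antigen, and of those bound by a lectin of Ulex europaeus. The labels give neither strain, age and sex of the animals nor any tie between a CD24Neg and a CD24Mid library.

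In the small intestine, Indian hedgehog is secreted by epithelial cells and is received mainly by the mesenchyme beneath them, where binding to Patched receptors releases the transducer Smoothened and activates Gli transcription factors. Bone morphogenetic proteins bind paired type I and type II receptor kinases, which phosphorylate receptor Smads. These enter the nucleus with Smad4 and switch on genes such as the Id family, while inhibitory Smads feed back on the receptors. BMP activity is known to be high on the villus and low at the crypt base, where antagonists from the stroma hold it down.

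The data are normalised expression values per gene, as deposited by the authors. Epithelial markers made up 1.05 to 1.33% of the nuclear-gene value in CD24Neg libraries and 1.003 to 1.27% in CD24Mid libraries (exact two-sided permutation p = 0.286). Over a total that includes mitochondrial genes they were lower in CD24Neg, by 0.203 percentage points (exact permutation, adjusted p = 0.0381). Villus enterocyte markers were at 2.63 to 4.46% in CD24Neg and 0.128 to 0.202% in CD24Mid, and crypt stem and cycling cell markers at 0.0197 to 0.0591% in CD24Neg and 0.521 to 0.763% in CD24Mid (exact permutation p = 0.0286 each, the smallest that 4 libraries against 4 allow). The steps between the lowest values put 1 read at 1.07 to 1.78 units in CD24Neg and 0.582 to 0.695 units in CD24Mid. That gave estimated depths of 12.5 to 20.7 M reads in CD24Neg and 17.5 to 19.7 M reads in CD24Mid, so low values were less precise in CD24Neg. Mitochondrially encoded genes held 28.3 to 37.4% of the value in CD24Neg and 8.03 to 9.10% in CD24Mid. Fold changes below are CD24Neg over CD24Mid on the scale of log2(value + 0.5), which understates changes of low genes, with SE and with adjusted p from limma over all 12906 genes tested.

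Of the 9 genes with a row, 6 were higher and 1 was lower in CD24Neg, and 2 did not pass. The ligands Ihh and Bmp2 and the feedback inhibitor Smad7 rose by about 3-fold each, Id2 and Id3 by about 2-fold and Id1 by less, while the Hedgehog receptor Ptch1 fell. The BMP receptors Bmpr1a and Bmpr2 were the 2 that did not pass. These counts stand against a background in which most genes differed. Across all tested genes 68.3% passed an adjusted p of 0.05, 34.0% higher and 34.3% lower in CD24Neg, and in 63.8% every CD24Neg library lay on the same side of every CD24Mid library. The median log2 fold change of all tested genes was -0.02. All 9 genes had a value of at least 10 in every library, so none entered the test through the fraction in which it was high. In bulk samples fewer cells of a type and less RNA per cell cannot be told apart.

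**Figure D1:**
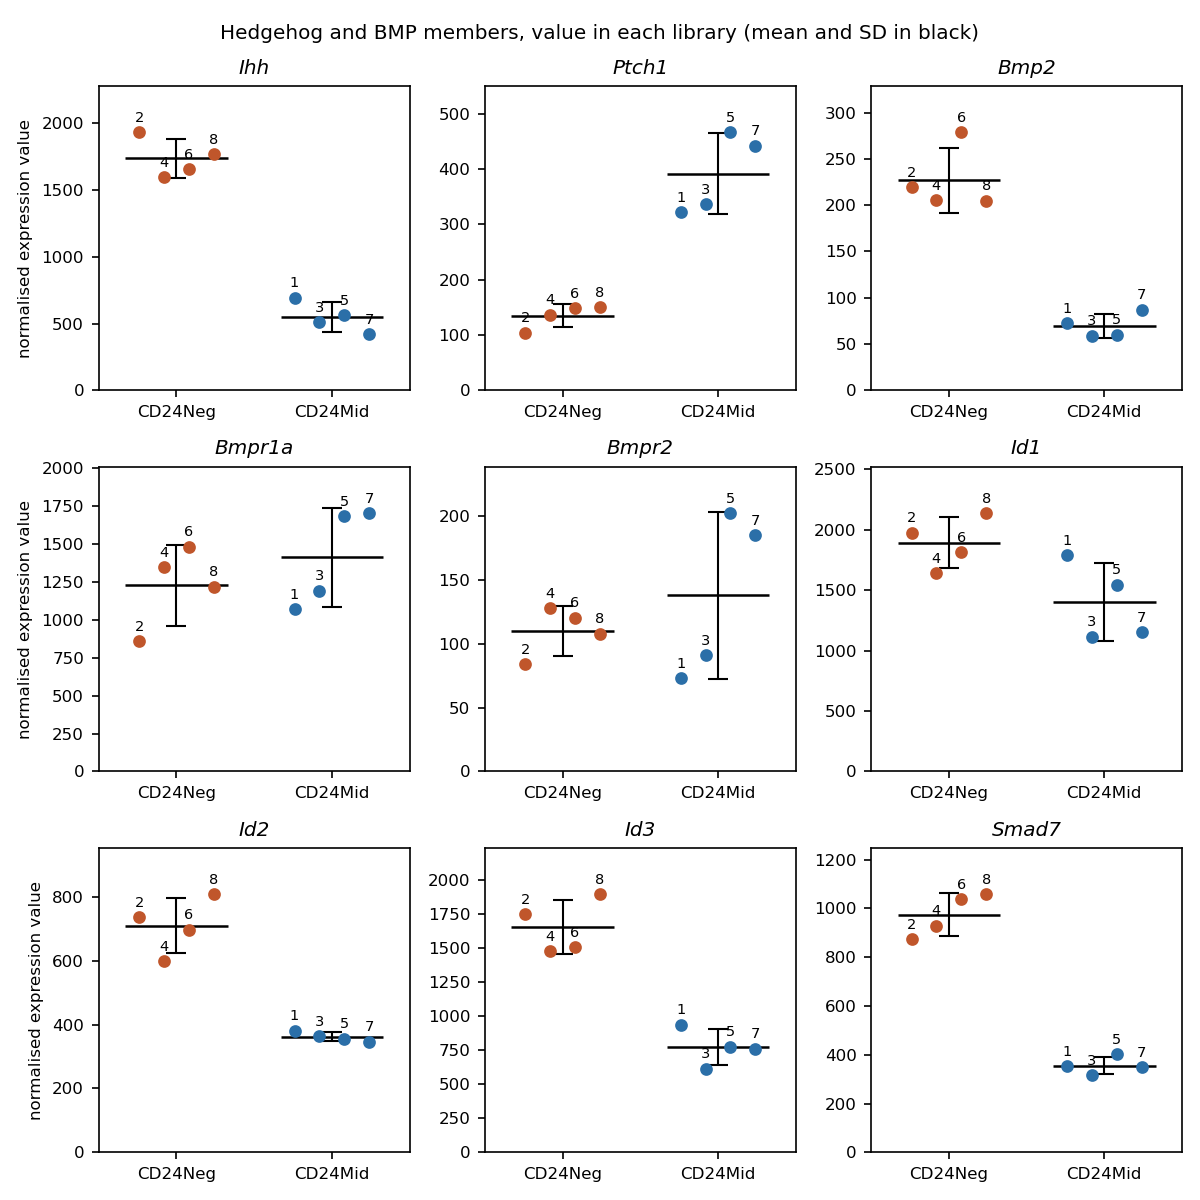
Normalised expression value (vertical axis, from 0) of the 9 genes in each CD24Neg library (left, numbers 2, 4, 6 and 8) and each CD24Mid library (right, numbers 1, 3, 5 and 7). Points are libraries, black lines the mean and SD. The fractions are separated for Ihh, Ptch1, Bmp2, Id2, Id3 and Smad7 and overlap for Bmpr1a, Bmpr2 and Id1.

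The Hedgehog ligand gene was higher in the CD24Neg fraction. Ihh (ENSMUSG00000006538) had values of 1933, 1596, 1656 and 1771 in CD24Neg libraries 2, 4, 6 and 8, against 693, 510, 564 and 423 in CD24Mid libraries 1, 3, 5 and 7. Every CD24Neg library lay above every CD24Mid library, and the lowest CD24Neg value was more than 2 times the highest CD24Mid value. The mean was 1739 ± 148 in CD24Neg and 548 ± 113 in CD24Mid (SD, n = 4 each), so that Ihh was 3.22-fold higher in CD24Neg (log2 fold change of 1.69 with SE 0.15, adjusted p = 4.42e-06 in limma). The spread between libraries was narrower in CD24Neg, with a coefficient of variation of 8.52%, against 20.6% in CD24Mid. The other Hedgehog ligand genes were near 0. Shh, known for its part in early gut development, was at 2.51 to 6.38 in CD24Neg and 1.74 to 7.94 in CD24Mid, and Dhh was at 2.64 to 4.74 in CD24Neg and listed at 0 in all 4 CD24Mid libraries.

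The receptor of the ligand went the other way. Ptch1 (ENSMUSG00000021466), which encodes the receptor that holds Smoothened inactive and is itself a target gene of the pathway, had values of 104, 137, 148 and 151 in CD24Neg libraries 2, 4, 6 and 8. In CD24Mid libraries 1, 3, 5 and 7 it had 322, 336, 466 and 442. The highest CD24Neg library was still under the lowest CD24Mid library. Its mean was 135 ± 21.2 in CD24Neg and 391 ± 73.0 in CD24Mid, a 2.88-fold lower level (log2 fold change -1.53, SE 0.17, limma adjusted p = 2.64e-05).

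For Ihh and Ptch1, which moved in opposite directions, the RefSeq windows from 250 bases before to 50 bases after the start site are shown (build GRCm38.p6, printed 5′ to 3′ on the strand of the gene). Capitals mark GGCGCC, a GC-rich element found in BMP-responsive enhancers that Smad proteins bind. The Ihh window is chr1:74951623-74951922 on the minus strand and the Ptch1 window is chr13:63565686-63565985 on the minus strand.
Ihh: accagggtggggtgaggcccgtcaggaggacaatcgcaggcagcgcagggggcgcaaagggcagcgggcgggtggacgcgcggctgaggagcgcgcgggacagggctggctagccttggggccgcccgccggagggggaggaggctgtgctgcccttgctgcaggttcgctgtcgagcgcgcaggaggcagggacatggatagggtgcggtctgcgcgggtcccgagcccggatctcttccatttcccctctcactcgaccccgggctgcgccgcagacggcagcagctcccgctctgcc
Ptch1: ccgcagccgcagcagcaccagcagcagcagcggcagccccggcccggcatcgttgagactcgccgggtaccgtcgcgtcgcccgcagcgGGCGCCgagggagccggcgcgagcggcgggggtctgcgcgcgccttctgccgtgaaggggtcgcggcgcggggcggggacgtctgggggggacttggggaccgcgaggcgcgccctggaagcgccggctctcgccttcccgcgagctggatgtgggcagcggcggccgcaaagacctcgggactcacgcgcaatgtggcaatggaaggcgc

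Both windows were searched on both strands for GGCGCC, for the Smad binding element GTCTAGAC, for the Gli site TGGGTGGTC and for the TATA box TATAAA. The Ptch1 window held 1 GGCGCC, beginning 161 bases before the start site, and the Ihh window held none of the 4 motifs. Among 32851 windows of the same length, 11.9% held GGCGCC, 0.213% GTCTAGAC, 0.253% TGGGTGGTC and 13.6% TATAAA. The windows were rich in G and C, 72.7% in Ihh and 76.3% in Ptch1, where the median of all windows was 52.7%. Nothing in these libraries measures the promoters themselves, so a match describes the sequence only.

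The remaining genes of Hedgehog reception were lower in CD24Neg where they passed. Across all tested genes 34.0% were called higher and 34.3% lower, shares that stand beside each list count below. Of 10 listed genes, 7 had a row, 4 were tested, 3 of these were lower, none was higher and 1 was not called. One of the 3, Boc, reached the minimum value in CD24Mid only, so its direction was fixed by that minimum. Smo, which encodes Smoothened, had values of 24.6, 52.0, 26.7 and 37.8 in CD24Neg libraries 2, 4, 6 and 8, against 465, 528, 480.3 and 449.7 in CD24Mid libraries 1, 3, 5 and 7. The fractions were far apart, and Smo was 14.03-fold lower in CD24Neg (log2 fold change of -3.81 with SE 0.23, adjusted p = 5.58e-07 in limma). Sufu, an inhibitor of Gli factors, averaged 150.3 ± 30.8 in CD24Neg and 224 ± 9.74 in CD24Mid (1.52-fold lower, adjusted p = 0.00858), a call that quantile normalization ended (adjusted p = 0.0513). The co-receptor gene Boc ranged between 0.844 and 9.86 in CD24Neg, a handful of reads at most, and between 53.5 and 68.9 in CD24Mid. No fold is given for Boc. Another co-receptor gene, Cdon, averaged 109 ± 13.5 in CD24Neg and 144 ± 26.3 in CD24Mid and did not pass (adjusted p = 0.063).

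Ligand processing and the mesenchymal targets of the pathway gave few values. Hhat, which encodes the acyltransferase that palmitoylates Hedgehog proteins, was 1.49-fold lower in CD24Neg (49.4 ± 8.20) than in CD24Mid (73.5 ± 6.09, adjusted p = 0.0197). It was the 1 gene of its list that could be tested, and the call was lost when CD24Neg library 2 (adjusted p = 0.0519) or CD24Mid library 3 (0.0537) was left out. Quantile normalization also ended the Hhat call (log2 fold change -0.307, limma adjusted p = 0.173), as did the test against a 1.5-fold change. Over the 20 alternatives tried, the adjusted p of Hhat lay between 0.000714 and 0.865. One of the 20 tested for a change of more than 1.5-fold, not for any change. It gave the upper end here and in the adjusted p ranges of single genes over all 20 below. Of 7 Hedgehog-responsive genes of the gut mesenchyme, 2 had a row and neither was tested: Bmp4 reached 1.198 in CD24Neg and 0.00342 in CD24Mid, and Nkx2-3 reached 0.803 in CD24Neg and was listed at 0 in CD24Mid.

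The BMP ligand was also higher in CD24Neg. Bmp2 (ENSMUSG00000027358) had values of 219, 205, 279 and 205 in CD24Neg libraries 2, 4, 6 and 8, against 72.5, 59.2, 60.2 and 87.2 in CD24Mid libraries 1, 3, 5 and 7. The fractions did not overlap, and library 6 stood highest among the CD24Neg libraries. The mean was 227 ± 35.1 in CD24Neg and 69.8 ± 13.1 in CD24Mid, so that Bmp2 was 3.25-fold higher in CD24Neg (log2 fold change of 1.70 with SE 0.18, adjusted p = 1.54e-05 in limma). The 95% intervals of the 2 ligand genes overlapped, at 1.31 to 2.10 for Bmp2 and 1.36 to 2.01 for Ihh on the log2 scale, and the difference between them was not tested.

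Other BMP ligand genes differed in direction among themselves. Of 12 listed, 8 had a row and 3 were tested, of which 1 was higher and 2 were lower. Bmp7 had values of 29.8, 21.03, 18.04 and 34.1 in CD24Neg libraries and of 189, 258, 191 and 173 in CD24Mid libraries, a 7.91-fold lower level in CD24Neg (log2 fold change -2.98, SE 0.24, limma adjusted p = 2.95e-06). The CD24Neg libraries all lay far below the CD24Mid libraries. Bmp8a had 20.9 to 59.8 in CD24Neg and 5.14 to 8.61 in CD24Mid, and since it entered the test through CD24Neg alone, no fold is given. Bmp3, which encodes a BMP family member known to oppose BMP signalling in bone, averaged 370 ± 43.7 in CD24Neg and 477 ± 76.0 in CD24Mid (log2 fold change -0.36, adjusted p = 0.0472). This call ended in 11 of 20 alternatives, among them leaving out any 1 of CD24Neg libraries 2, 4, 6 and 8 or CD24Mid libraries 1, 5 and 7 (adjusted p = 0.0517 to 0.124 in these, 0.00103 to 1 over all 20). The upper end over all 20 came from the test against a 1.5-fold change.

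The receptor genes did not pass the test in the main setting. Bmpr1a (ENSMUSG00000021796), the type I receptor through which BMP restrains crypt growth, had values of 859, 1348, 1483 and 1219 in CD24Neg libraries 2, 4, 6 and 8, against 1069, 1193, 1682 and 1702 in CD24Mid libraries 1, 3, 5 and 7. The fractions overlapped, with a mean of 1227 ± 268 in CD24Neg and 1412 ± 328 in CD24Mid (log2 fold change -0.20, 95% interval -0.65 to 0.25, adjusted p = 0.4). Bmpr2 (ENSMUSG00000067336), the type II receptor, had 83.9, 128, 121 and 108 in CD24Neg libraries, against 73.1, 91.2, 202 and 185 in CD24Mid libraries. All 4 CD24Neg values fell within the CD24Mid range, and the log2 fold change was -0.21 (95% interval -0.94 to 0.52, adjusted p = 0.587). The Bmpr1a call depended on the scaling: it was called lower under quantile normalization (log2 fold change -0.54, adjusted p = 0.0274) and under scaling to totals (-0.63, adjusted p = 0.0171). Bmpr1a was also called lower when mitochondrially encoded genes were left out and libraries were scaled to the totals of the remaining genes (-0.67, adjusted p = 0.0129). Its adjusted p lay between 0.0129 and 1 in the 20 alternatives, the upper end in the test against a 1.5-fold change. In the main setting the intervals leave room for a 1.57-fold decrease of Bmpr1a and a 1.92-fold decrease of Bmpr2.

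Both receptor genes and Ptch1 split the CD24Mid libraries in the same way, low in libraries 1 and 3 and high in libraries 5 and 7. The same libraries differed in their long transcripts. The 2151 tested genes with at least 8 kb of annotated exon had a median log2 deviation from the CD24Mid mean of -0.14 in library 1, -0.10 in library 3, 0.12 in library 5 and 0.12 in library 7. Tested genes with less than 8 kb had medians of 0.07, 0.04, -0.05 and -0.05 in the same libraries. Bmpr2 has 17.98 kb of annotated exon, and its deviations in those libraries were -0.78, -0.46, 0.68 and 0.56. Ptch1 has 14.19 kb, with deviations of -0.26, -0.20, 0.27 and 0.19. Bmpr1a has 6.35 kb, which is under the 8 kb limit, with deviations of -0.37, -0.21, 0.28 and 0.30. Among CD24Neg libraries, library 2 was lowest for Bmpr1a, Bmpr2 and Ptch1, and for Smad7, which has 4.52 kb. Library 2 also had the lowest long-transcript median (-0.15, with 0.03 to 0.10 in the other 3). The part of transcript length in these values was not tested.

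**Figure D2:**
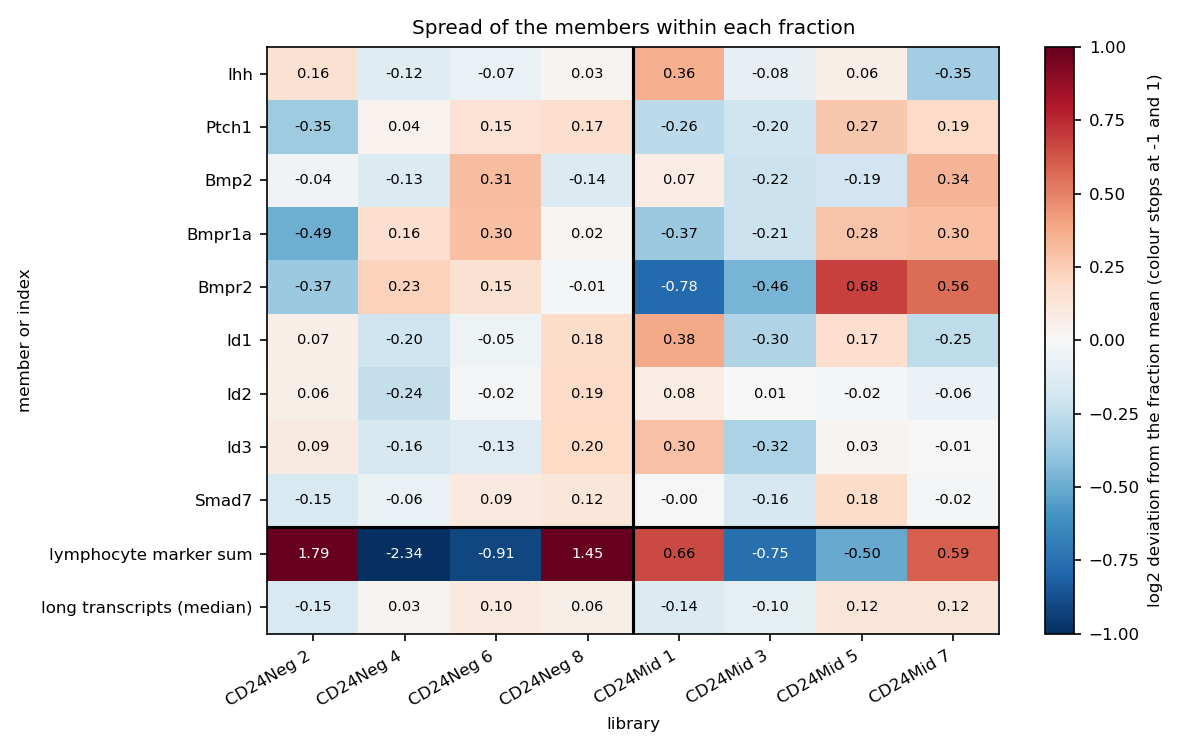
Log2 deviation of each gene from the mean of its own fraction, in 4 CD24Neg libraries (left of the black line) and 4 CD24Mid libraries (right), with the summed lymphocyte markers and the median of long transcripts in the bottom rows. Bmpr2 runs from -0.78 in CD24Mid library 1 to 0.68 in CD24Mid library 5, and the 3 Id genes are above the fraction mean in CD24Neg libraries 2 and 8 and below it in libraries 4 and 6.

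Among other receptor genes of the family, 6 of 10 listed were tested, 1 was higher, 2 were lower and 3 were not called, with a median log2 fold change of -0.38. Rgmb, which encodes a BMP co-receptor of the repulsive guidance family, had 327, 428, 331 and 349.98 in CD24Neg libraries, against 1267, 1729, 1518 and 1355 in CD24Mid libraries. No CD24Neg library came near the CD24Mid range, and the level was 4.08-fold lower in CD24Neg (log2 fold change -2.03, SE 0.13, limma adjusted p = 7.24e-07). Neo1, which encodes neogenin, the receptor that binds the Rgm proteins, averaged 1128 ± 99.7 in CD24Neg and 1479 ± 178 in CD24Mid (1.31-fold lower, adjusted p = 0.0114). Leaving out CD24Neg libraries 2 and 8 together ended the Neo1 call (adjusted p = 0.134), as did testing for more than a 1.5-fold change. Its adjusted p lay between 7.01e-05 and 1 in the 20 alternatives, the upper end in that 1.5-fold test. The type II receptor gene Acvr2a averaged 699 ± 195 in CD24Neg and 405 ± 105 in CD24Mid (1.72-fold higher, adjusted p = 0.0136), with overlapping ranges. Its call was lost when libraries were scaled to totals (adjusted p = 0.186) and in 3 further alternatives. Its adjusted p lay between 0.00211 and 0.425 in all 20, the upper end in the test against a 1.5-fold change. Acvr1, which encodes a type I receptor, was at 275 ± 43.0 in CD24Neg and 223 ± 12.6 in CD24Mid (adjusted p = 0.0789).

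The Id genes, whose proteins lack a DNA-binding region and hold basic helix-loop-helix factors off DNA, rose to different extents. Id3 (ENSMUSG00000007872) had values of 1748, 1476, 1506 and 1892 in CD24Neg libraries 2, 4, 6 and 8, against 937, 612, 776 and 760.0 in CD24Mid libraries 1, 3, 5 and 7. The fractions did not overlap, and the mean was 1655 ± 199 in CD24Neg and 771 ± 133 in CD24Mid (2.16-fold, log2 fold change 1.11, SE 0.14, limma adjusted p = 5.79e-05). Id2 (ENSMUSG00000020644) had 736, 599, 696 and 807 in CD24Neg, against 381, 363, 356 and 347 in CD24Mid. Its CD24Mid libraries lay close together, with a coefficient of variation of 4.02%, against 12.3% in CD24Neg. The Id2 mean was 710 ± 86.9 in CD24Neg and 362 ± 14.6 in CD24Mid (1.95-fold, log2 fold change 0.96, SE 0.11, limma adjusted p = 2.61e-05).

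Id1 changed least. Id1 (ENSMUSG00000042745) had values of 1975, 1642, 1815 and 2135 in CD24Neg libraries 2, 4, 6 and 8, against 1790, 1114, 1546 and 1154 in CD24Mid libraries 1, 3, 5 and 7. CD24Mid library 1 lay inside the CD24Neg range, so the fractions overlapped. The mean was 1892 ± 212 in CD24Neg and 1401 ± 324 in CD24Mid (1.37-fold, log2 fold change 0.46, SE 0.16, limma adjusted p = 0.0292). The call rested on single libraries and on the scaling. It ended without CD24Neg library 2 (adjusted p = 0.0503), CD24Neg library 8 (0.0726), CD24Mid library 3 (0.0897) or CD24Mid library 7 (0.0883). Under a scaling to library totals that left out the 20 top genes, the Id1 log2 fold change was 0.03 (adjusted p = 0.891). The adjusted p of Id1 ran from 0.0063 to 1 over 20 alternatives, the upper end in the test against a 1.5-fold change. Id4, the remaining family member, was low, at 15.1 ± 3.81 in CD24Neg and 22.1 ± 6.27 in CD24Mid (adjusted p = 0.184).

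The windows of Id2 and Id3, which rose together, are shown with GGCGCC in capitals. The Id2 window is chr12:25096043-25096342 on the minus strand and the Id3 window is chr4:136143572-136143871 on the plus strand, in the same build and orientation as above.
Id2: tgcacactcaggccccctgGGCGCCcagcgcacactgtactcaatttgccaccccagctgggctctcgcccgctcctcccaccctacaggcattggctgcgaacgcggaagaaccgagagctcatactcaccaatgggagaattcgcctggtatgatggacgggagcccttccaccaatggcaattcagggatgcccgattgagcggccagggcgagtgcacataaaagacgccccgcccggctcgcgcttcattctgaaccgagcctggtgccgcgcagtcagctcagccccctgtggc
Id3: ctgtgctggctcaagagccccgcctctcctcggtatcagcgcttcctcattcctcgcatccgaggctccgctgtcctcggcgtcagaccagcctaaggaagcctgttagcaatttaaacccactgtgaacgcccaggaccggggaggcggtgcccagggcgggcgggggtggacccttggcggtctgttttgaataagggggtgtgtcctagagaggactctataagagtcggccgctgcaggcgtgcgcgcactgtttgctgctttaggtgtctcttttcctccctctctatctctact

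The Id2 window held 1 GGCGCC, beginning 231 bases before the start site, and the Id3 window held none of the 4 motifs. The windows of the receptor genes Bmpr1a and Bmpr2, which did not pass the test, also held 1 GGCGCC each. The Hhip window held none of the 4 motifs. Windows were found for 7 of the 10 genes, and none was examined for Id1, Bmp2 and Smad7. G and C made up 63.3% of the Id2 window, 60.0% of Id3, 79.3% of Bmpr1a and 59.3% of Bmpr2, with a median of 52.7% over all windows. The share of windows with GGCGCC given above was not matched for G and C content.

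Lymphocyte transcripts varied between the same CD24Neg libraries as the Id genes. In libraries 2 and 8 all 3 Id genes were higher than in libraries 4 and 6. Other measures split these libraries too. Ihh was at 1933 and 1771 in libraries 2 and 8, and at 1596 and 1656 in libraries 4 and 6. Mitochondrially encoded genes held 35.6 and 37.4% in libraries 2 and 8, and 28.3 and 28.9% in libraries 4 and 6. Villus enterocyte markers were lower in libraries 2 and 8 (2.63 and 2.86%) than in libraries 4 and 6 (4.10 and 4.46%). The 12 T cell and intraepithelial lymphocyte markers summed to 0.0722, 0.00411, 0.0111 and 0.057% of the nuclear-gene value in CD24Neg libraries 2, 4, 6 and 8, against 0.00143 to 0.00381% in CD24Mid libraries (exact two-sided permutation p = 0.0286, adjusted over 8 marker lists p = 0.0457). Over a total that includes mitochondrial genes the adjusted p was 0.0857. All 12 markers were above 0 in every library. Without CD24Neg libraries 2 and 8 the log2 fold change was 0.86 for Id2 (adjusted p = 0.000348) and 0.99 for Id3 (adjusted p = 0.000883), and Id1 did not pass (0.35, adjusted p = 0.154). The part of lymphocyte RNA, or of the other measures that split these libraries, in the remaining Id2 and Id3 differences was not tested.

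The bHLH partners that Id proteins bind were lower or not called. Tcf3, which encodes the E protein E2A, averaged 913 ± 60.7 in CD24Neg and 1688 ± 182 in CD24Mid (1.84-fold lower, adjusted p = 3.48e-05). Tcf12 averaged 661 ± 108 in CD24Neg and 1125 ± 212 in CD24Mid (1.69-fold lower, adjusted p = 0.00213). Tcf4, the third E protein gene, was at 153 ± 49.97 in CD24Neg and 201 ± 37.3 in CD24Mid and did not pass (adjusted p = 0.148).

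Smad7, the inhibitory Smad that recruits ubiquitin ligases to the receptors of the TGF-beta family, had the smallest adjusted p of the 9 genes. Smad7 (ENSMUSG00000025880) had values of 873, 929, 1037 and 1058 in CD24Neg libraries 2, 4, 6 and 8, against 354, 317, 402 and 348 in CD24Mid libraries 1, 3, 5 and 7. The lowest CD24Neg library was more than 2 times the highest CD24Mid library. The mean was 974 ± 87.9 in CD24Neg and 355 ± 34.8 in CD24Mid (2.74-fold, log2 fold change 1.45, SE 0.11, limma adjusted p = 1.66e-06). The related inhibitory Smad gene Smad6 had 272, 270.3, 269.6 and 348 in CD24Neg libraries, against 217, 159.5, 186 and 168 in CD24Mid libraries, and was 1.59-fold higher (adjusted p = 0.00185). Scaling to totals ended the Smad6 call (0.24 on the log2 scale, adjusted p = 0.172). The adjusted p of Smad6 lay between 0.000475 and 0.542 in the 20 alternatives, the upper end in the test against a 1.5-fold change.

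The Smads that carry the signal were not called in the main setting, while several regulators were higher. Of 11 Smad genes and regulators, 10 were tested, 5 were higher, none was lower and 5 were not called (median log2 fold change 0.31). The receptor Smad genes Smad1 (874 ± 59.1 in CD24Neg and 893 ± 63.1 in CD24Mid, adjusted p = 0.778) and Smad5 (499.6 ± 64.4 in CD24Neg and 556 ± 58.4 in CD24Mid, adjusted p = 0.289) did not pass. The shared partner gene Smad4 was at 1455 ± 249 in CD24Neg and 1583 ± 128 in CD24Mid (adjusted p = 0.378). Other scalings called these genes lower in CD24Neg. Under quantile normalization Smad1 (log2 fold change -0.27, adjusted p = 0.0296) and Smad4 (-0.50, adjusted p = 0.0028) were lower, and under scaling to totals Smad1 (-0.46, adjusted p = 0.00109), Smad5 (-0.58, adjusted p = 0.00214) and Smad4 (-0.56, adjusted p = 0.00168) were lower. All 3 were also lower under scaling to totals without mitochondrially encoded genes. The highest adjusted p over the 20 alternatives was 1 for each, in the test against a 1.5-fold change. The Smad corepressor gene Skil had 1088, 1974, 2125 and 1941 in CD24Neg libraries, against 518, 459, 694 and 869 in CD24Mid libraries. Its ranges did not overlap, and it was 2.80-fold higher (log2 fold change 1.49, SE 0.25, limma adjusted p = 0.000406). Tob1, which encodes an antiproliferative protein that binds Smads, averaged 4676 ± 710 in CD24Neg and 1910 ± 450.1 in CD24Mid (2.49-fold, adjusted p = 0.000145). Ppm1a, which encodes a Smad phosphatase, averaged 2602 ± 303 in CD24Neg and 1355 ± 43.4 in CD24Mid (1.91-fold, adjusted p = 2.11e-05). Smurf2, a ubiquitin ligase gene, was 1.26-fold higher (939.6 ± 116 in CD24Neg and 745 ± 111 in CD24Mid, adjusted p = 0.0436). That call ended in 9 of 20 alternatives and turned direction in 2 more, among them leaving out CD24Neg library 4, 6 or 8 or CD24Mid library 1 or 3 (adjusted p = 0.0657 to 0.117 in these, 0.018 to 1 over all 20). The upper end over all 20 came from the test against a 1.5-fold change.

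Antagonists and modulators went in both directions. Of 15 listed, 9 had a row and 6 were tested, of which 3 were higher, 2 lower and 1 not called (median log2 fold change 0.91). Nbl1, which encodes an antagonist of the DAN family, had 258, 259, 242 and 315 in CD24Neg libraries, against 83.3, 44.8, 49.9 and 42.8 in CD24Mid libraries. The fractions were far apart, and the level was 4.99-fold higher in CD24Neg (log2 fold change 2.32, SE 0.22, limma adjusted p = 7.98e-06). Crim1, which encodes a membrane protein that binds BMPs, was 1.96-fold higher (684 ± 156 in CD24Neg and 347 ± 57.6 in CD24Mid, adjusted p = 0.000624). Twsg1, which encodes the secreted modulator twisted gastrulation, was 2.03-fold lower (359 ± 110 in CD24Neg and 711 ± 122 in CD24Mid, adjusted p = 0.00237). Bambi, a pseudoreceptor gene, had 3.08 to 13.0 in CD24Neg, within several reads of 0, and 19.5 to 40.7 in CD24Mid (limma adjusted p = 0.00285). In CD24Neg only library 4 reached the minimum value of 10, so Bambi entered the test through CD24Mid. Its call is not independent of that minimum, and no fold is given. The classical antagonist genes with a row were near 0, with Nog listed at 0 in all CD24Neg libraries and reaching 0.373 in CD24Mid, and Chrd reaching 8.12 in CD24Neg and 2.90 in CD24Mid.

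Among other BMP-responsive genes, few gave a value that could be tested. Of 8 listed genes of this kind 4 were tested, 1 was higher (Smad6), 2 were lower (Atoh8 and Bambi) and 1 was not called. Atoh8, a helix-loop-helix factor gene, had 0.718 to 4.12 in CD24Neg, within a few reads of 0, and 18.7 to 47.7 in CD24Mid. It reached the minimum value in CD24Mid only, so its direction was fixed by that minimum. Bambi reached the minimum in CD24Mid and in CD24Neg library 4 alone.

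The TGF-beta and activin branch had no called increase among the genes that passed the filter. Of 14 listed genes 9 were tested, 4 were lower and 5 were not called (median log2 fold change -0.20). Tgfb3 was at 5.04 to 28.1 in CD24Neg and at most 1.12 in CD24Mid, but too few libraries reached the minimum for a test. With no filter on low values, 1 gene of this list was called higher. The receptor genes Tgfbr1 (285 ± 42.7 in CD24Neg and 503 ± 100.4 in CD24Mid, 1.75-fold lower, adjusted p = 0.00177) and Tgfbr2 (169 ± 48.5 in CD24Neg and 376 ± 29.2 in CD24Mid, 2.29-fold lower, adjusted p = 0.000414) were lower, and so were the corepressor genes Tgif1 and Tgif2 (2.44-fold and 7.16-fold). The receptor Smad genes Smad2 (421 ± 20.3 in CD24Neg and 413 ± 32.2 in CD24Mid) and Smad3 (687 ± 88.4 in CD24Neg and 615 ± 44.4 in CD24Mid) did not pass (adjusted p = 0.805 and 0.268). Across all 10 lists, 92 genes outside the 10 named ones were considered, 44 were tested, 10 were higher, 17 lower and 17 not called. Of all 12906 tested genes 68.3% were called, 34.0% higher and 34.3% lower, so these counts are not read as a result about the pathways. Of the 44, Boc, Bmp8a and Atoh8 reached the minimum in 1 fraction only, and Bambi in CD24Mid and CD24Neg library 4 alone.

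**Figure D3:**
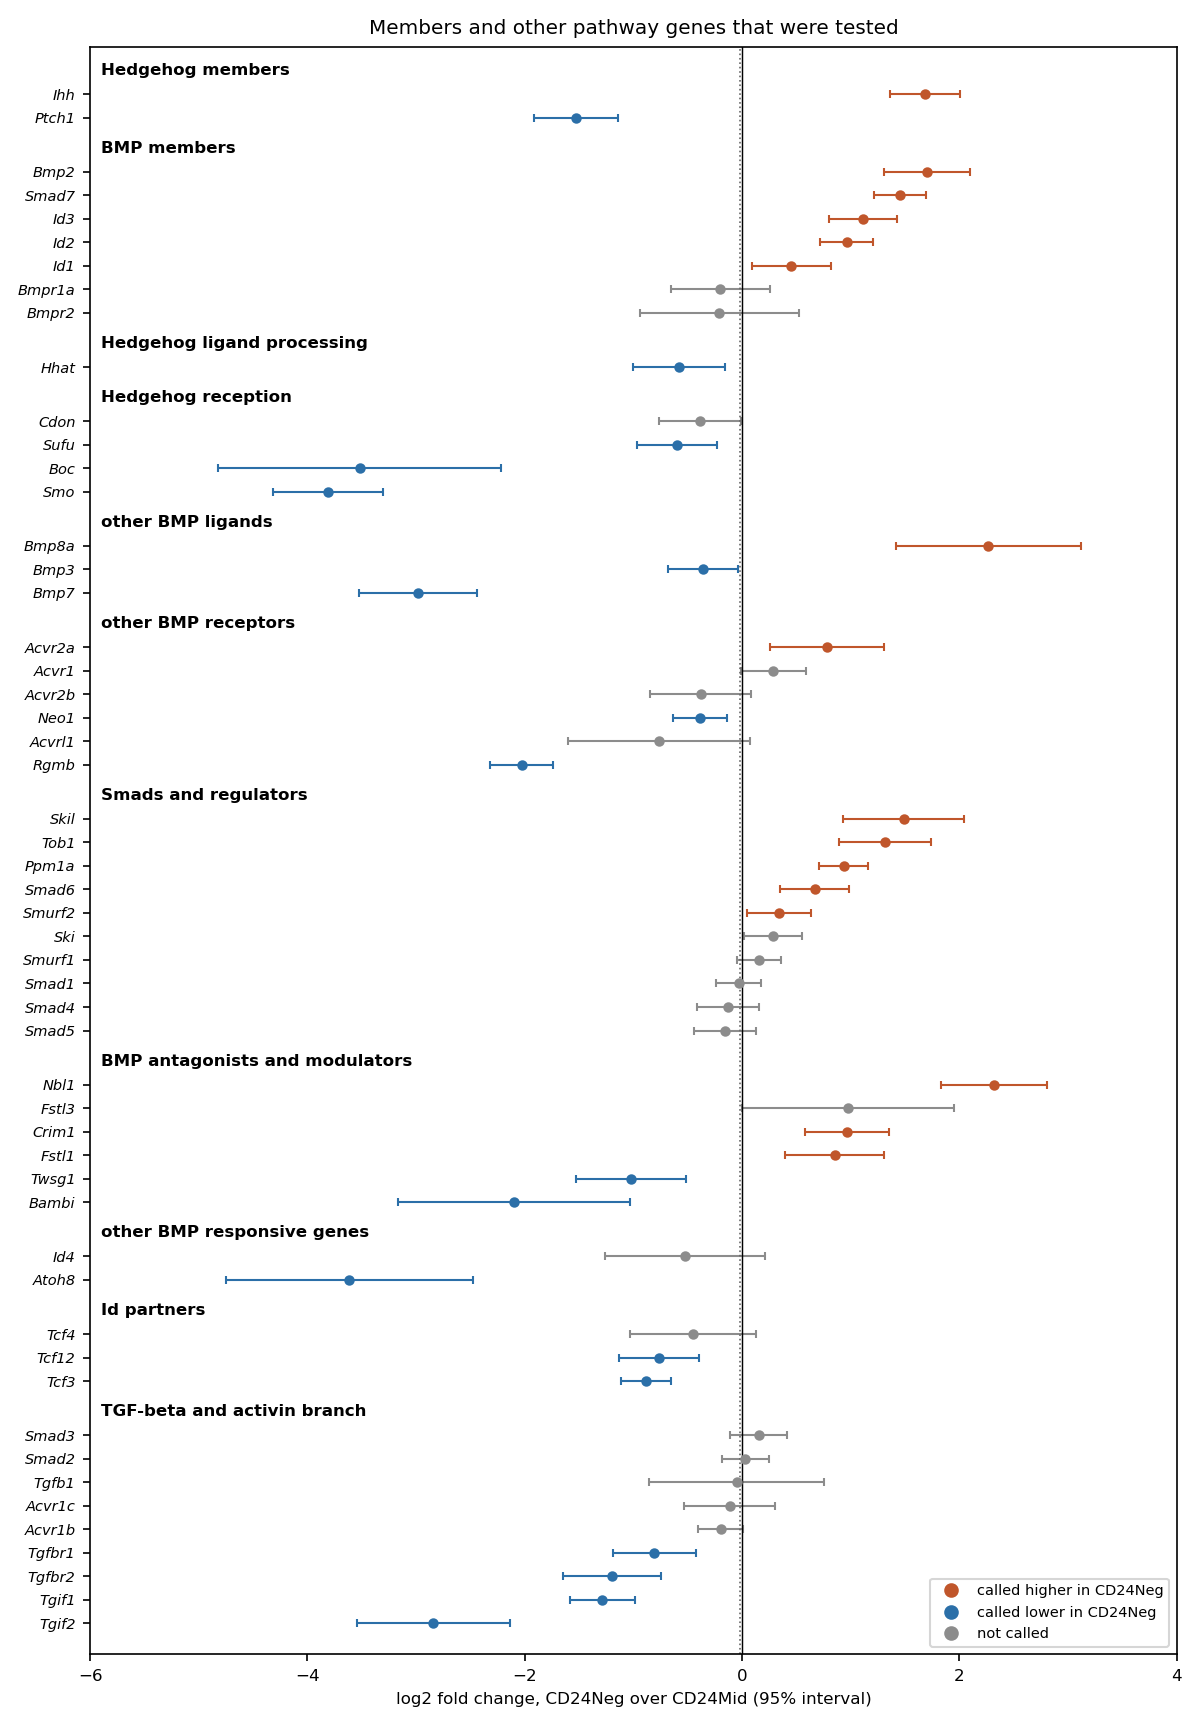
Log2 fold change, CD24Neg over CD24Mid, with its 95% interval, for the 9 genes (top 2 groups) and the 44 other pathway genes that were tested, by role. Orange marks genes called higher, blue genes called lower and grey genes not called, and the dotted line is the median of all tested genes (-0.02). Ihh lies at 1.69, and Ptch1 and Smo lie at -1.53 and -3.81. Boc, Bmp8a and Atoh8 reached the minimum value in 1 fraction only, which fixed their direction. Bambi reached it in CD24Mid and in CD24Neg library 4 alone.

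Levels of different genes were compared only per kilobase of annotated exon (GENCODE M21, all isoforms joined), as means over 4 libraries. In CD24Neg the order was Id1 (1631 per kb), Id3 (924), Ihh (571), Id2 (291), Smad7 (216), Bmpr1a (193), Bmp2 (63.8), Ptch1 (9.52) and Bmpr2 (6.12). Neighbours in this order did not overlap between libraries except Smad7 (193 to 234 per kb) and Bmpr1a (135 to 234 per kb). In CD24Mid the order was Id1 (1208 per kb), Id3 (431), Bmpr1a (222), Ihh (179.6), Id2 (149), Smad7 (78.6), Ptch1 (27.6), Bmp2 (19.6) and Bmpr2 (7.67). There Bmpr1a overlapped with Ihh, Ihh with Id2, and Ptch1 (22.7 to 32.8 per kb) with Bmp2 (16.7 to 24.5 per kb). Ihh thus stood at 59.9 times Ptch1 in CD24Neg and 6.51 times in CD24Mid, per kilobase and as ratios of means. Joined isoforms overstate the length of genes with alternative ends, which lowers their value per kilobase.

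The genes whose profile over the 8 libraries was most like that of Ihh, by the root mean square difference of mean-centred log2 values among 10558 candidates with a mean of at least 50, were Spata2l (0.0911), Rassf7 (0.0986) and Mib2 (0.105). For Bmp2 they were Tbcel (0.116), Myo5b (0.121) and B2m (0.123), and for Id1 they were Sfn (0.137), Slc4a2 (0.137) and Maff (0.147). The difference between the fractions made up most of the Ihh and Bmp2 profiles. Likeness to them therefore mostly means a similar fold change, and shared regulation was not tested.

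Transcripts that mark the mesenchyme, the usual recipient of Hedgehog signals, were low in these libraries. The 10 mesenchymal and smooth muscle markers with a row summed to 0.0004 to 0.00121% of the nuclear-gene value in CD24Neg and 0.00144 to 0.00215% in CD24Mid (exact permutation p = 0.0286, adjusted p = 0.0457), and 8 of the 10 were listed at 0 in at least 1 library. Vim and Pdgfrb gave most of it, with means of 63.7 and 32.2 in CD24Neg and 144 and 39.8 in CD24Mid, while Pdgfra and Acta2 stayed under 0.8 in every library. Vim was at 125, 25.6, 31.1 and 73.2 in CD24Neg libraries 2, 4, 6 and 8. It was thus highest in libraries 2 and 8, where the lymphocyte markers were highest too. The part of lymphocyte, plasma and B cell RNA in Vim was not tested. Only Vim was called lower in CD24Neg (limma adjusted p = 0.0158), and Pdgfrb was not called (adjusted p = 0.336). The other 8 were too low to test. Among them Col1a1, Col1a2, Col3a1, Dcn and Des had higher means in CD24Neg (Col3a1 3.13, against 0.56 in CD24Mid), and Acta2 a lower one. Endothelial markers summed to 0.000503 to 0.000851% in CD24Neg and 0.000551 to 0.000783% in CD24Mid (p = 1, exact permutation). Myeloid markers were at 0.00138 to 0.00353% in CD24Neg and 0.00323 to 0.00571% in CD24Mid (exact permutation p = 0.0571, adjusted p = 0.0762). Plasma and B cell markers were at 0.00115 to 0.00269% in CD24Neg and 0.0276 to 0.0714% in CD24Mid (exact permutation p = 0.0286, adjusted p = 0.0457). Their part in the fraction differences of Ptch1, Smo and Bmp7, which were higher in CD24Mid, was not tested.

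Scaling mattered for the smaller differences. When library totals, less the 20 top genes, set the scale, the median over all genes was -0.44 on the log2 scale in place of -0.02, and 30.4% of calls were higher in CD24Neg in place of 49.8%. Under this scaling to totals Ihh (1.26), Bmp2 (1.27), Smad7 (1.03), Id3 (0.68) and Id2 (0.54) remained called higher and Ptch1 (-1.95) lower on the log2 scale, Bmpr1a became called lower (-0.63, adjusted p = 0.0171), and Id1 was not called. Measured from the median of -0.44, Bmpr1a lay at -0.184 under this scaling. Its main value was -0.2, with a median of -0.02. Other genes not called in the main setting were called lower under this scaling, among them Cdon (-0.81), Id4 (-0.94), Tcf4 (-0.88), Smad2 (-0.40) and Smad3 (-0.28), with adjusted p between 0.00235 and 0.0399. In a further alternative, mitochondrially encoded genes were left out and libraries were scaled to the totals of the remaining genes, in place of median centring. It gave a median of -0.48 over all genes, with 28.8% of calls higher in CD24Neg. The effects of leaving these genes out and of scaling to totals were not separated. The directions and calls of Ihh, Ptch1, Bmp2, Id2, Id3 and Smad7 were the same in all 20 alternatives.

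**Figure D4:**
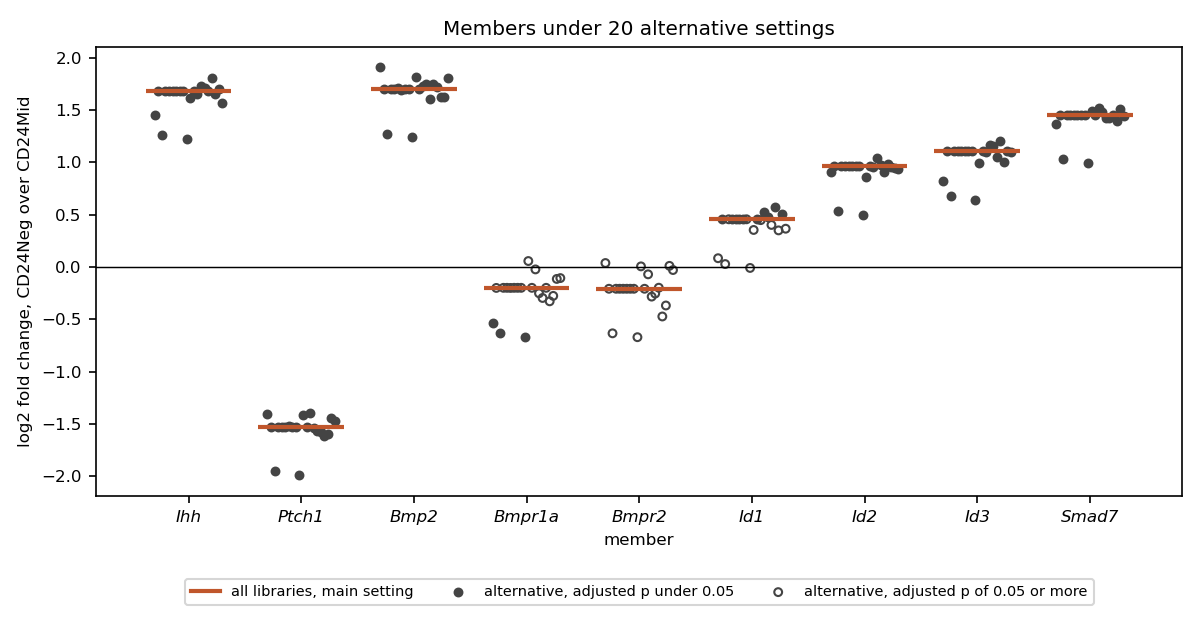
Log2 fold change of the 9 genes, CD24Neg over CD24Mid, in the main setting (orange line) and in 20 alternatives (points, filled where adjusted p is under 0.05 and open otherwise). Ihh, Ptch1, Bmp2, Id2, Id3 and Smad7 have filled points throughout, while Id1 reaches from -0.01 to 0.58 and Bmpr1a from -0.67 to 0.06.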

How the data were processed

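RNA-seq of 8 libraries of sorted mouse small intestinal epithelium was analysed. The signal values deposited by the authors are normalised expression values per Ensembl gene and already scaled between libraries. Alignment tool Bowtie 0.12.8 and build NCBIM37 are listed per the submitters' processing notes. How the values were scaled is not given in those notes. Low values lie on even steps, read as 1 read per step, which gave the depths. Values did not come out as whole reads, so no count model was used. Symbols matched 21223 of 23318 identifiers (GENCODE M21).

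A gene was tested if 4 or more libraries reached 10. Libraries were centred on the median ratio to the geometric mean and fitted as log2(value + 0.5) in limma 3.58.1 (R 4.3.3, trend and robust variance, 6 residual degrees of freedom), with Benjamini-Hochberg adjustment over all tested genes. Single genes are called at an adjusted p under 0.05. The fit was also run on simulated data in which few genes changed, as many up as down. In the real data most genes differed, so that run cannot test the centring or the error rate here. For marker sums, an exact permutation test (two-sided, scipy 1.17.1) was used. The labels call the libraries biological replicates but do not say which animals they came from, so p-values measure the spread between these libraries.

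The 10 genes and the lists were chosen with earlier results of these data known. All 10 genes and any gene of the pathway lists could be named, and similar profiles were named by rule for Ihh, Bmp2 and Id1. Promoter windows come from RefSeq tables in GRCm38.p6, which is not the build of the files, so no other coordinates are given.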

Additional observations from a re-analysis of the deposited data

Results flagged for a closer look

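In 122 groups of 4 libraries (the 9 genes, 44 other pathway genes and 8 marker sums in each fraction), 6 held a library far from the other 3, judged by its gap as a share of the group's range with Dixon's test at 95%. Chance flags about 1 group in 20. None of the 9 genes was among them. Smad6 was at 348 in CD24Neg library 8, next to 272 in the nearest library. Tgfbr1 was at 221 in CD24Neg library 2, next to 303. Tgif1 was at 249 in CD24Neg library 6, next to 345, and at 899 in CD24Mid library 3, next to 754. Smad5 was at 470 in CD24Mid library 1, next to 576. The epithelial marker sum was 1.27% in CD24Mid library 1, next to 1.05%.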

How the results depend on the processing

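No paired analysis was run, because the title numbers of the fractions do not overlap and no label ties a CD24Neg library to a CD24Mid library. The numbers alternate between the fractions, and whether libraries with adjacent numbers share a source is not stated. Over 20 alternatives, 163 of 180 values of the 9 genes kept direction and call, 9 lost the call (all Id1), 3 gained it (Bmpr1a) and 5 turned direction. For the 44 other genes 754 of 859 kept both, 42 lost and 39 gained the call and 24 turned. Genes called higher numbered 2842 when totals less the 20 top genes set the scale, 2360 in the test against a 1.5-fold change and 2707 under scaling to totals without mitochondrially encoded genes. Genes called lower numbered 2430 and 6695 in the last pair. The 9 genes had 2 called lower under both scalings and under quantile normalization. Leaving out 1 library gave 3970 to 4266 genes called higher and 3882 to 4306 lower, with 5 to 6 of the 9 genes higher and 1 lower. With all genes as denominator the epithelial marker difference was -0.203 percentage points (adjusted p = 0.0381), the lymphocyte one 0.0208 (adjusted p = 0.0857) and the myeloid one -0.00249 (adjusted p = 0.0381).

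Log2 fold changes turned direction as follows, and the cause was not tested. Quantile normalization: Bmpr2 0.037, Ski -0.028, Tgfb1 0.194, Acvr1c 0.071. Scaling to totals (median of all tested genes -0.444): Acvr1 -0.138, Smurf1 -0.27, Smurf2 -0.089, Ski -0.142, Smad2 -0.399, Smad3 -0.276. Scaling to totals without mitochondrially encoded genes (median of all tested genes -0.483): Id1 -0.01, Acvr1 -0.176, Smurf1 -0.308, Smurf2 -0.127, Ski -0.18, Smad2 -0.436, Smad3 -0.313. Without CD24Neg libraries 2 and 8: Bmpr1a 0.056, Bmpr2 0.005, Smad1 0.029, Smad4 0.015. Leaving out 1 library at a time gave -0.474 to 0.01 for Bmpr2, -0.083 to 0.025 for Smad1, -0.021 to 0.069 for Smad2 and -0.314 to 0.16 for Tgfb1. Those that turned direction were CD24Mid library 5 for Bmpr2, CD24Neg library 8 and CD24Mid library 3 for Smad1, CD24Mid library 1 for Smad2, and CD24Neg library 4 or 6 and CD24Mid library 1 or 7 for Tgfb1. The calls of Sufu, Crim1, Fstl1, Tcf12, Tgfbr1 and Twsg1 also ended in the test against a 1.5-fold change. Genes within a few reads of 0 in CD24Neg, such as Boc and Atoh8, are limited by depth.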
